A study of Mus musculus with 2 samples.

Results

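The cells described here are dermal cells of imiquimod (IMQ)-treated mouse skin that carried transcripts of *Ly6c2*, *Chil3* and *Plac8*, genes used to mark Ly6C-high monocytes. They were selected on their own measured transcripts, as unique molecular identifiers (UMIs, each standing for 1 captured transcript). A dermal cell with 200 to 5000 detected genes and at most 10% mitochondrial UMIs became a member when *Ly6c2*, *Chil3* and *Plac8* together held at least 10 of every 10000 of its UMIs. It also had to hold under 20 per 10000 of the macrophage genes *C1qa*, *C1qb* and *C1qc*, and fewer than 5 UMIs of the neutrophil genes *Cxcr2*, *Retnlg*, *Ly6g* and *Mrgpra2b*. Finally, it had to hold fewer than 3 UMIs of the dendritic cell genes *Cd209a* and *Flt3*, at most 1 UMI of *Cd3d*, *Cd3e* and *Cd3g*, and fewer than 3 UMIs of the proliferation genes *Mki67* and *Top2a*. This gate kept 1311 of the 4721 dermal cells that passed the limits on genes and mitochondria, which is 27.8% (95% Clopper-Pearson interval 26.5 to 29.1), and the members held 24.6% of the UMIs of those cells. The dermal library had 5376 barcodes and both libraries together had 10634.

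Wild-type C57BL/6 mice, 10 weeks old by the labels and younger by the study's methods, received IMQ cream for 5 consecutive days. The labels name the ear as the treated site, while the methods give doses for both back and ear, so the site is uncertain. From the dermis 1 droplet-based single-cell 3′ library was made, and 1 from the epidermis. By the methods, CD45+ live cells were loaded for the dermis and all live cells for the epidermis, whereas the labels name only the removal of dead cells for both layers, so the population behind a share of dermal cells is uncertain. The dermal library held 252 fibroblasts without a *Ptprc* UMI. The number of mice behind each library is not given in the sources used here. Both libraries come from IMQ-treated skin, so no value below compares treated with untreated skin, and a library of untreated skin was not analysed here. In all, 41258087 UMIs were counted in the dermal library, and its median barcode had 6086 UMIs from 1669 genes. With 1 library per tissue there is no replicate and no test. Levels are counts per 1000000 UMIs (CPM) after summing the UMIs of a group of cells, ratios are given with exact 95% intervals, and these intervals cover counting error only, not the spread between cells or animals. The groups were cut from the same cells by their transcripts, so the ratios describe the groups.

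Classical, Ly6C-high monocytes are made in the bone marrow, leave it through the chemokine receptor CCR2 and enter inflamed skin from the blood. There they can lose Ly6C and take on genes of macrophages or of antigen-presenting cells. In the skin they are known as sources of interleukin-1β, of chemokines for neutrophils and of matrix and clotting proteins. *Ly6c2* encodes a small surface protein anchored in the membrane by a lipid, *Chil3* a secreted chitinase-like lectin (Ym1), *Plac8* a small cysteine-rich protein of myeloid cells, and *Fn1* fibronectin.

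*Ly6c2* and *Chil3* both have close paralogues beside them in the genome, so the windows around their starts are shown with those of their neighbours and of *Prtn3*, a granule protease gene at a higher level in the members than in macrophages. Positions of genes follow GENCODE M21 on the GRCm38 build. *Ly6c2* lies on the minus strand at chr15:75108158-75111970, *Ly6c1* on the same strand at chr15:75044018-75048830, *Chil3* at chr3:106147554-106167564 and *Chil4* at chr3:106201490-106219507, both on the minus strand. The RefSeq windows, on GRCm38.p6, run from 250 bases before to 50 bases after an annotated start and are written 5′ to 3′ in the direction of the gene. Capitals mark AGGAAGT, a 7-letter core of the kind that ETS factors such as PU.1 bind, searched on both strands, so that ACTTCCT is the same match read from the other strand.
Ly6c2, chr15:75111922-75112221, minus strand: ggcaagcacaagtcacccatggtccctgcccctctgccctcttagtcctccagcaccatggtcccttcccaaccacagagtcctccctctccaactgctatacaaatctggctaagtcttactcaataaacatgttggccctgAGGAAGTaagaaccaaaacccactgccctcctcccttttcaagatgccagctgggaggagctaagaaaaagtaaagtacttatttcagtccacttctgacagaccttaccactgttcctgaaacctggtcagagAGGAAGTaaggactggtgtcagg
Ly6c1, chr15:75048788-75049087, minus strand: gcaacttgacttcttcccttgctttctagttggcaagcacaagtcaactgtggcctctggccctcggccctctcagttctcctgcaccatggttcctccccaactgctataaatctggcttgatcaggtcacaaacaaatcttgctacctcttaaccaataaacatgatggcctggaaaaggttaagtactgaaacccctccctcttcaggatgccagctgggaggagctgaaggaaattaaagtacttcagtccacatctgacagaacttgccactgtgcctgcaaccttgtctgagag
Chil3, chr3:106167515-106167814, minus strand: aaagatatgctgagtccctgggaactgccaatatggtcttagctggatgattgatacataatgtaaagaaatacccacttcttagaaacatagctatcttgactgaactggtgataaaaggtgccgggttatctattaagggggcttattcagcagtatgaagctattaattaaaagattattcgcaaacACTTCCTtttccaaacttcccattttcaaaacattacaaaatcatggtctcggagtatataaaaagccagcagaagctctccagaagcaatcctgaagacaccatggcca
Chil4, chr3:106219430-106219729, minus strand: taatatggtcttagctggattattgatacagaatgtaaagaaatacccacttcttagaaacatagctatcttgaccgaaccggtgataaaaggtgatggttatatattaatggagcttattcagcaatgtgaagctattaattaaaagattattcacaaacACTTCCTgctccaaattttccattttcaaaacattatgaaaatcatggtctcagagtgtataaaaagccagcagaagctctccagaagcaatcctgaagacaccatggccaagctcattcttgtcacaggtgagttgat
Prtn3, chr10:79879417-79879716, plus strand: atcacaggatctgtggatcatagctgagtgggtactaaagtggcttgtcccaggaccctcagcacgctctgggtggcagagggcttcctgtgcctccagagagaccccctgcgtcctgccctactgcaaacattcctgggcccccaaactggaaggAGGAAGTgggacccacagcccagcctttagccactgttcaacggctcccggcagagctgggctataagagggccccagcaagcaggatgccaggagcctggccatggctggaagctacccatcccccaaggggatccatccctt
The *Ly6c2* window held 2 matches, those of *Chil3*, *Chil4* and *Prtn3* held 1 each and the first *Ly6c1* window held 0, while a second annotated *Ly6c1* start had 1 match in its window. The first *Ly6c1* window ends inside that match, which lies in a stretch like that of the second *Ly6c2* match. Its 0 therefore comes from the window edge and is no sequence difference at that site. *Chil4* had 0 UMIs in the members and in the other dermal groups although its window held a match, and *Ly6c1* stood at 9.01 CPM in the members against 214 CPM in dermal fibroblasts. Of the other genes searched by name, *Lyz2* and *Ifitm6* had 1 match each, *F13a1* had 0 and 2 in its 2 windows, and *Plac8*, *Ccr2*, *Vcan*, *Cx3cr1* and *Mcpt8* had none. Of all 27025 genes with a window in the table, 10.7% had a match, against 12.3% of the 5645 genes with a window compared between *Lyz2*-bearing members and macrophages. The share was 15.3% (43 of 281 genes, 95% interval 11.3 to 20.1) among genes at least 2-fold higher in these members and 14.3% (42 of 293, 10.5 to 18.9) among those at least 2-fold lower, and these intervals overlap. A match is a run of letters and says nothing of binding. Reads of near-identical copies can be split or lost in counting, and the values of *Ly6c2* and *Chil3* are uncertain to that extent.

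The label was checked against monocyte genes that the gate did not use, and the members were found to be mixed and were divided into 3 sets. One set of 144 members carried at least 5 UMIs of *Mcpt8*, *Ms4a2* and *Fcer1a*, genes of basophils and mast cells. In 982 of the other members (74.9% of all) *Lyz2*, the lysozyme gene of monocytes, macrophages and granulocytes, made up at least 20 of every 10000 UMIs, and these cells are called *Lyz2*-bearing members below. The remaining 185 members (14.1%) had neither. This split was made after the values were seen and is a description. Near the threshold on *Lyz2*, 103 members lay between 10 and 20 per 10000 and 62 between 20 and 30, while the median member had 83.4. Under the same threshold fell 94.7% of T cells, 93.3% of fibroblasts and 90.3% of dendritic cells, but 58.5% of neutrophils and 18.0% of C1q-high macrophages.

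**Figure D1:**
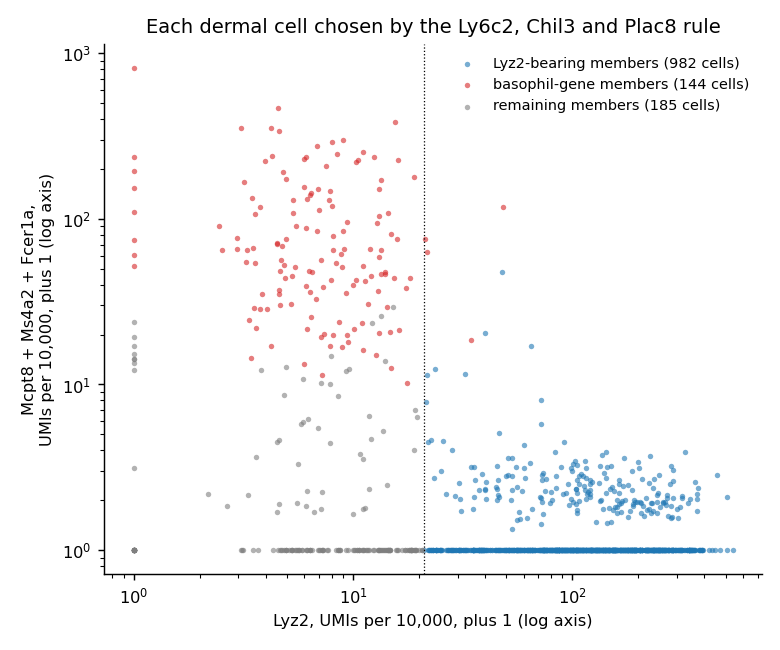
Each point is 1 of the 1311 members, placed by its *Lyz2* level (x axis) and its summed level of *Mcpt8*, *Ms4a2* and *Fcer1a* (y axis), both as UMIs per 10000 plus 1 on log axes, and coloured by set. Nearly all of the 144 basophil-gene members lie at the top left, and the 982 *Lyz2*-bearing members lie to the right of the dotted line at 20 per 10000, most of them at or near 0 on the y axis.

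The *Lyz2*-bearing members as a whole carried genes of classical monocytes, but *Ly6c2* was not high in all of them. *Ly6c2* stood at 801 CPM in the whole set. In the 2 lowest quintiles by the summed level of the 3 gate genes, of 197 cells each, it stood at 155 and 271 CPM, below the 374 CPM of neutrophils and close to or above the 147 CPM of dendritic cells. In those quintiles *H2-Aa*, an MHC class II gene, stood at 1892 and 1812 CPM, close to the 1824 CPM of C1q-high macrophages, and *Cd74*, the class II invariant chain gene, at 4662 and 4854 CPM against 4045 CPM. *Ly6c2* was thus not high in these cells, which the gate admitted on the sum of its 3 genes. The quintiles were cut on that same sum, so a low *Ly6c2* in the lowest ones was in part fixed by the order. The other groups were not sorted in this way, so the comparison with them gives no verdict on the name Ly6c2-high. *Ccr2* stood at 407 and 419 CPM in these 2 quintiles, against 147 CPM in C1q-high macrophages. In the *Lyz2*-bearing members together, *Ccr2* stood at 432 CPM, the versican gene *Vcan* at 214 CPM, the transglutaminase gene *F13a1* at 182 CPM, the haptoglobin gene *Hp* at 905 CPM and *Ifitm6* at 602 CPM. In the basophil-gene members the same 5 genes stood at 79.4, 14.4, 14.4, 144 and 85.2 CPM, and in the remaining members at 168, 19.4, 14.3, 193 and 228 CPM. *Lyz2* itself, which defined the split, was at 15439 CPM in the first set, against 786 and 712 CPM in the other sets. Both of those lie near its 844 CPM in T cells and 781 CPM in fibroblasts, which should lack the gene.

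*Mcpt8*, a mast cell protease family member made by basophils and 1 of the 3 genes that defined the basophil-gene members, stood at 9102 CPM in them. Outside those 3 genes, the largest ratio to the *Lyz2*-bearing members was that of the protease gene *Prss34*, at 890 against 1.25 CPM, followed by the integrin gene *Itga2b*, at 338 against 0.626 CPM. *Hdc*, the gene of the histamine-forming enzyme, stood at 5136 CPM, the transcription factor gene *Gata2* at 841 CPM and the interleukin-4 gene *Il4* at 319 CPM. *Prss34* had 616 UMIs in these 144 cells and 10 UMIs in the 982 *Lyz2*-bearing ones. It was found in only 45 of the 144 cells, against 105 for *Itga2b* and 143 for *Hdc*. The level of *Ly6c2*, a gate gene, was in part fixed by the rule. The summed gate level of the basophil-gene members had a median of 22.1 and a maximum of 381 per 10000. *Ly6c2* was higher in them than in any other set, at 1684 CPM. In the same cells *Chil3* was at 76.5 CPM, close to the 62.9 CPM of T cells and the 62.2 CPM of fibroblasts. These data go against the label for this set, and it is called by its leading genes. The remaining members were a mixture: 55 of 185 had MHC class II genes and *Cd74* at 100 per 10000 or more, 10 had at least 5 UMIs of the cytotoxic genes *Nkg7* and *Gzma*, 32 had fewer than 1000 UMIs in all and 93 had none of these. Their leading genes over the *Lyz2*-bearing members included *Ly6d*, *Gzma*, *Lag3* and *Cd7*, of which *Gzma* had 399 UMIs in 14 cells. Mast cell and basophil genes were also among them, with *Cpa3*, a mast cell carboxypeptidase gene, at 239 against 12.0 CPM and *Hdc* at 408 against 36.1 CPM. *Hdc* UMIs were seen in 71 of the cells, but no background share from other groups was set beside this number. No expression per cell is read from it. The 7 genes of that list summed to 1046 CPM in the remaining members, led by *Cma1* at 484 CPM, against 139 CPM in the *Lyz2*-bearing ones, although the split had limited 3 such genes. Among all members, 57 had at least 5 UMIs of *Cma1*, *Mcpt4* and *Cpa3*.

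The gate genes were not always found together. All 3 gate genes were detected in 632 members (48.2%), 2 of them in 465 and 1 in 214, and in 151 of the last it was *Plac8*. The summed gate level ran from 10.01 to 381 per 10000, with quartiles at 18.2, 32.6 and 67.1. Just inside the threshold, between 10 and 11 per 10000, lay 56 cells with a median *Lyz2* of 28.9 per 10000, of which 34 were *Lyz2*-bearing. Just outside, between 9 and 10, lay 55 cells with a median *Lyz2* of 15.9, of which 23 met the *Lyz2* limit, and the nearest had a gate level of 9.99. The members had a median of 6938 UMIs, 1774 genes and 2.11% mitochondrial UMIs. *Lyz2*-bearing members were deeper, at 7831 UMIs, than basophil-gene members at 4534.5 and remaining members at 3598. *Ptprc*, which encodes CD45, was detected in 66.7% of members, and 45 barcodes, 19 of them members, occurred in both libraries.

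Marker genes of other cell types differed in level within the *Lyz2*-bearing members. The 15 neutrophil genes summed to 4480 CPM, led by *S100a8* at 2497 CPM, against 2471 CPM in C1q-high macrophages, 1944 in T cells and 4283 in fibroblasts. The 20 macrophage genes summed to 2790 CPM, led by *Apoe* at 1207 CPM, against 1319 CPM in T cells and 16884 in C1q-high macrophages. This list holds *C1qa*, *C1qb* and *C1qc*, which the gate limited in the members and which defined the macrophages, so part of that gap was fixed by the selection. The 8 fibroblast genes summed to 461 CPM, led by *Dcn* at 249 CPM, against 341 CPM in C1q-high macrophages and 1123 in T cells. The 8 keratinocyte genes summed to 5.01 CPM, with *Krt5*, *Lor* and *Sprr1b* at 0 UMIs. The 7 mast cell and basophil genes summed to 139 CPM and the 14 T and NK cell genes to 73.6 CPM, but limits on members of both lists had been used to choose these cells, as had limits on 4 of the neutrophil genes. The part of these transcripts in the comparisons below was not tested.

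*Ly6c2*, *Chil3* and *Plac8* were highest in the members, as the rule fixed. *Ly6c2* was at 838 CPM in all members, 374 in neutrophils, 147 in dendritic cells, 113 in T cells, 84.9 in C1q-high macrophages and 36.2 in fibroblasts. *Chil3* was at 1891 CPM in the members and 2249 in the *Lyz2*-bearing ones, against 593 in neutrophils, 271 in macrophages and 62 to 66 in dendritic cells, T cells and fibroblasts. *Plac8* was at 3084 CPM in the members, 1373 in neutrophils, 748 in dendritic cells and 292 in macrophages. *Fn1*, the marker that the gate left free, was at 151 CPM in all members and 179 in the *Lyz2*-bearing ones, and was lower in the other myeloid groups, at 81.1 CPM in neutrophils, 25.3 in macrophages and 23.5 in dendritic cells. It was not particular to the members, since fibroblasts stood at 202 CPM. With each cell thinned to 1000 UMIs, *Fn1* was found in 14.3% of *Lyz2*-bearing members, 1.7% of T cells and 15.1% of fibroblasts. Unthinned, these shares were 46.9%, 14.7% and 49.6% at median depths of 7831, 7368 and 8330 UMIs.

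**Figure D2:**
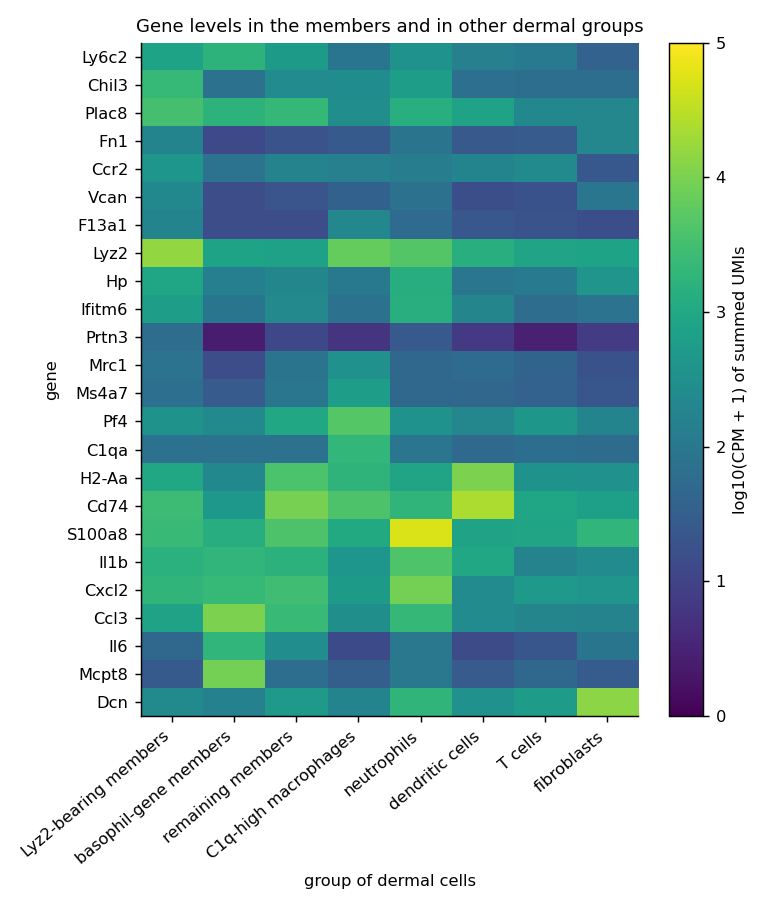
Levels of monocyte, macrophage, antigen presentation, neutrophil and basophil genes (rows) in the 3 sets of members and in 5 other groups of dermal cells (columns), as CPM of summed UMIs on a log10 colour scale after adding 1. *Fn1*, *Vcan* and *F13a1* are lighter in the *Lyz2*-bearing members than in the basophil-gene and remaining members, and *Mcpt8* is light in the basophil-gene members alone.

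The C1q-high macrophages were 726 cells with the C1q genes at 20 per 10000 or more. Against them, *Lyz2*-bearing members were higher in most classical monocyte genes measured and lower in most resident macrophage genes measured. Among 7087 genes that reached 100 UMIs when both groups were added, 374 (5.28%) were at least 2-fold higher and 379 (5.35%) at least 2-fold lower, around a median log2 ratio of -0.04. Genes of the gate were left out of these counts, but *Lyz2*, *Mcpt8*, *Ms4a2* and *Fcer1a*, which made the split, were not. With all 1311 members, 529 of 7461 genes (7.09%) were at least 2-fold higher and 375 (5.03%) lower, and the largest ratios then belonged to genes of the basophil-gene set such as *Prss34*, *Alox15*, *Mcpt8* and *Itga2b*. The values below are therefore those of the *Lyz2*-bearing members unless all members are named.

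Of the 17 classical monocyte genes measured, 12 were at least 2-fold higher and 0 lower, with a median log2 ratio of 1.57. *Lyz2*, on which these members were selected, is 1 of the 12 and says nothing here. *Hp*, which encodes the haemoglobin-binding protein haptoglobin, was at 905 CPM against 105 CPM, 8.59-fold higher (7.96 to 9.28). *Ifitm6* was 8.36-fold (7.63 to 9.19) and *Fn1* 7.09-fold (6.06 to 8.35) higher. *Vcan*, the gene of a matrix proteoglycan, was at 214 against 33.9 CPM, 6.31-fold higher (5.50 to 7.26). *Ccr2* was at 432 against 147 CPM, 2.94-fold higher (2.74 to 3.15). Both populations shared other genes of the lineage: *Csf1r*, the receptor for the macrophage growth factor, stood at 210 against 235 CPM, *F13a1* at 182 against 209 CPM and the integrin gene *Itgam* at 190 against 209 CPM.

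The genes with the largest ratios included granule and vessel genes at low levels. *Prtn3*, encoding proteinase 3 of granulocyte and monocyte granules, was at 60.0 CPM against 4.91 CPM, 12.2-fold higher (8.62 to 17.8), and was detected in 23.3% of *Lyz2*-bearing members and 1.2% of T cells. Other granule genes of myeloid progenitors were near absent, with *Mpo* at 0.501 CPM and *Elane* at 1.63 CPM. *Ace*, the angiotensin-converting enzyme gene that also marks non-classical monocytes, was at 19.8 against 1.73 CPM. Of 11 non-classical monocyte genes 6 were at least 2-fold higher, among them *Ace*, *Treml4*, *Itgal* and *Nr4a1*, and *Cd36* was lower.

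*Cx3cr1*, the fractalkine receptor gene of non-classical monocytes and resident macrophages, was at 171 against 77.3 CPM, 2.21-fold higher, but this rested on few cells. Among all members 171 cells had a *Cx3cr1* UMI, 32 had 10 or more, and the richest 50 cells held 89.3% of its 1418 UMIs.

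Genes of resident macrophages stood lower in the members. Of 13 macrophage genes measured, 10 were at least 2-fold lower and 0 higher, with a median log2 ratio of -1.79. *Marco*, a scavenger receptor, had 3 UMIs in the *Lyz2*-bearing members and 249 in the macrophages, a ratio of 0.0104 (0.00214 to 0.0309). *Pf4*, the platelet factor 4 chemokine, was at 354 against 4900 CPM, 13.8-fold lower (13.3 to 14.4). *Folr2*, the folate receptor gene of resident macrophages, was 16.5-fold lower (12.4 to 22.6), *Ms4a7* 9.75-fold (8.90 to 10.7) and the haemoglobin scavenger receptor gene *Cd163* 8.98-fold lower (6.91 to 11.8). *Mrc1*, the mannose receptor gene, stood at 78.0 against 335 CPM. Of 15 lipid genes measured, 0 were at least 2-fold higher and 7 lower. Among them were the lipoprotein lipase gene *Lpl* at 20.5 against 132 CPM, the phospholipid transfer protein gene *Pltp* at 88.5 against 537 CPM, and *Apoe*, 2.09-fold lower (2.04 to 2.14). Of 10 measured cell cycle genes 7 were at least 2-fold lower, although the limit on *Mki67* and *Top2a* held for both groups.

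**Figure D3:**
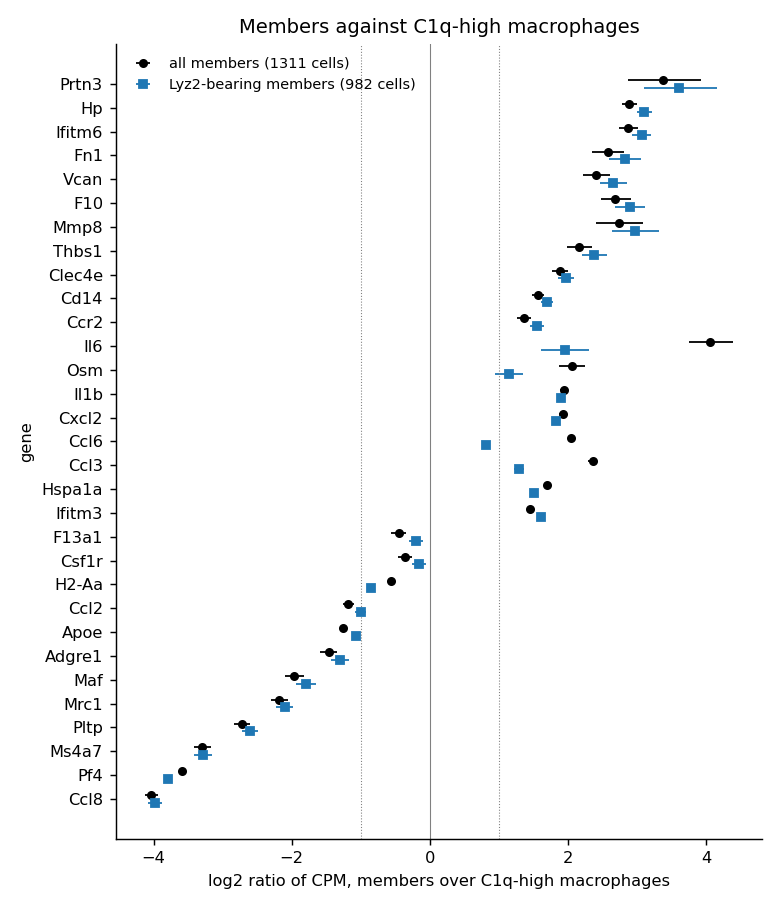
Log2 ratio of CPM, members over C1q-high macrophages, for named genes (rows), with all 1311 members as black circles and the 982 *Lyz2*-bearing members as blue squares, and bars for exact 95% intervals of counting error. Dotted lines mark 2-fold, and *Il6*, *Osm*, *Ccl6* and *Ccl3* move left when only *Lyz2*-bearing members are counted, while *Fn1*, *Vcan* and *Hp* move right.

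Inflammatory cytokine genes were higher in the members than in macrophages, but part of this lay in the basophil-gene cells. Of 13 cytokine genes measured in the *Lyz2*-bearing members, 8 were at least 2-fold higher and 0 lower, with a median log2 ratio of 1.15. *Il1b*, the interleukin-1β gene, was at 1547 against 414 CPM, 3.73-fold higher (3.58 to 3.89), and *Tnf* at 114 against 55.9 CPM, 2.05-fold higher (1.82 to 2.31). *Il10*, encoding an anti-inflammatory cytokine, was at 57.5 against 25.8 CPM, 2.22-fold higher (1.87 to 2.66). *Il6* was 16.7-fold higher (13.5 to 21.0) in all members but 3.88-fold higher (3.06 to 4.95) in the *Lyz2*-bearing ones, where it stood at 48.7 CPM against 1974 CPM in the basophil-gene members. Those 144 cells held 67.4% of the members' 2028 *Il6* UMIs (95% interval 65.3 to 69.4). *Osm*, the oncostatin M gene, stood at 89.4 CPM in *Lyz2*-bearing and 1036 CPM in basophil-gene members.

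Chemokine genes differed in both directions. Of 17 ligands measured, 5 were at least 2-fold higher than in macrophages and 8 lower. Higher were the neutrophil attractants *Cxcl2*, at 1891 against 534 CPM (3.54-fold, 3.42 to 3.67), *Cxcl1* (2.58-fold, 2.05 to 3.28) and *Cxcl3* (2.53-fold, 2.01 to 3.21), with *Ccl3* (2.45-fold, 2.33 to 2.57) and *Cxcl10*. Lower were attractants of monocytes and other leukocytes, with *Ccl8* at 117 against 1842 CPM, 15.7-fold lower (14.7 to 16.8), *Ccl12* 6.60-fold lower (6.02 to 7.24) and *Ccl7* 3.59-fold lower (3.39 to 3.80). *Ccl2*, the CCR2 ligand gene, was at 269 against 539 CPM. *Cxcl13*, a lymphocyte attractant outside the list, was at 12.1 against 534 CPM, 44.0-fold lower (36.0 to 54.4). *Ccl6* was 4.13-fold higher in all members but 1.75-fold higher (1.69 to 1.82) in the *Lyz2*-bearing ones, and the basophil-gene members stood at 19235 CPM and held 60.0% of its UMIs. Of 11 chemokine receptor genes, 6 were at least 2-fold higher and 0 lower: *Ccr2*, *Ccr1*, *Ccrl2*, *Cx3cr1* and the formyl peptide receptor genes *Fpr1* and *Fpr2*.

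**Figure D4:**
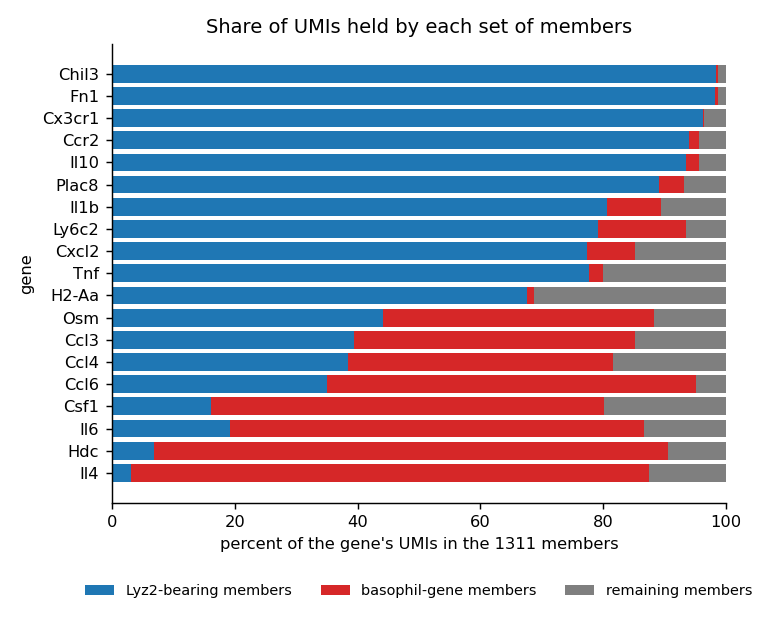
Percent of each gene's UMIs in the 1311 members (x axis) that lay in *Lyz2*-bearing, basophil-gene and remaining members (stacked bars), by gene (y axis). *Lyz2*-bearing members held 98.4% of the *Chil3* and 98.2% of the *Fn1* UMIs, but 35.1% of the *Ccl6*, 19.2% of the *Il6* and 3.05% of the *Il4* UMIs.

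Some stress genes that respond to tissue digestion were also higher in the members than in macrophages. Of 15 such genes 5 were at least 2-fold higher in *Lyz2*-bearing members than in macrophages and 0 lower. Their most abundant gene, the heat shock gene *Hspa1a*, was at 7336 CPM against 2569 CPM, and at 14733 CPM in the basophil-gene members. It was as high in dendritic cells (7785 CPM) and T cells (8050 CPM), and lower in neutrophils (3745 CPM) and fibroblasts (1620 CPM). The immediate early gene *Jun* was 2.05-fold higher (1.97 to 2.14), and *Nr4a1*, another early response gene, 2.24-fold higher (2.08 to 2.42). The part of digestion stress in the levels of *Il1b*, *Cxcl2*, *Tnf* and *Nr4a1* was not tested.

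Of 23 matrix, protease and coagulation genes measured, 8 were at least 2-fold higher in the members and 2 lower, with a median log2 ratio of 0.15, and the whole list summed to 6645 against 6848 CPM. *F10*, the gene of clotting factor X, was at 207 against 27.9 CPM, 7.44-fold higher (6.40 to 8.68). *Thbs1*, encoding the adhesive protein thrombospondin 1, was at 223 against 42.7 CPM, 5.21-fold higher (4.60 to 5.91). The neutrophil collagenase gene *Mmp8* was 7.83-fold (6.20 to 10.0) and the urokinase receptor gene *Plaur* 3.13-fold (2.79 to 3.51) higher. *Timp2*, an inhibitor of metalloproteinases, was at 57.3 against 337 CPM, and the lysosomal protease gene *Ctsb* at 636 against 1304 CPM. Of 22 adhesion and migration genes 6 were at least 2-fold higher, *Itgb7* (6.80-fold, 5.59 to 8.34), *Itga4* (3.38-fold) and *Itgal* among them, and 1 lower.

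IMQ acts through TLR7, whose own gene stood at a like level in members and macrophages, while 5 of 21 genes of the Toll-like receptor pathway were at least 2-fold higher in the members. *Tlr7* was at 14.3 CPM in *Lyz2*-bearing members and 15.7 CPM in macrophages, a difference within counting error, since the ratio of macrophages to members was 1.10 (0.840 to 1.45). *Tlr7* was detected in 10.7% of *Lyz2*-bearing members and 2.4% of T cells before thinning, and in 1.3% and 0.8% after. The 5 higher genes included *Cd14* (3.24-fold, 3.04 to 3.45), the co-receptor for bacterial lipid, *Tlr2* (2.43-fold, 2.11 to 2.81) and the inhibitor gene *Nfkbia* at 1260 against 457 CPM. *Tlr1* was the 1 gene of the 21 at least 2-fold lower. Of 29 interferon-stimulated genes 4 were at least 2-fold higher and 0 lower. *Ifitm3* stood out by its level, 4476 against 1466 CPM (3.05-fold, 2.99 to 3.12), whereas *Isg15* was at 75.9 against 69.3 CPM and *Irf7* at 58.7 against 51.4 CPM. *Mefv*, *Il1b* and *Nlrp3* were at least 2-fold higher among 11 inflammasome genes, with *Nlrp3* at 66.5 against 20.5 CPM. Of 12 genes of MHC class II and costimulation, 1, *H2-Eb1*, was at least 2-fold lower and 0 higher. *H2-Aa* was at 1006 against 1824 CPM (1.81-fold lower, 1.76 to 1.86) and *Cd74* at 2733 against 4045 CPM.

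Against the 703 cells of the neutrophil gate, *Lyz2*-bearing members were lower in the granulocyte genes and in many cytokine genes. Of 6683 genes 278 (4.16%) were at least 2-fold higher and 521 (7.8%) lower. With all members the counts were 326 of 7145 genes (4.56%) higher and 491 (6.87%) lower. The median log2 ratio over all genes was 0.23 in the first case and 0.25 in the second, and with all members and ratios centred on that median, 136 genes were higher and 631 lower, while means over cells gave 1080 higher and 481 lower. The ratios named here are not centred. All 11 neutrophil genes measured were at least 2-fold lower, *S100a8* standing at 2497 against 53032 CPM (21.2-fold lower, 20.9 to 21.5), *Ngp*, a granule protein gene, 49.5-fold (39.1 to 63.6) and the gelatinase gene *Mmp9* 30.7-fold lower (24.5 to 38.9). *S100a8* was also at 1974 CPM in fibroblasts, and after thinning it was found in 73.1% of *Lyz2*-bearing members, 62.3% of fibroblasts and 55.8% of T cells, so no expression in the members is read from it.

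*Cxcl2* was at 1891 CPM in *Lyz2*-bearing members against 9179 CPM in neutrophils, 4.85-fold lower (4.77 to 4.94), and *Il1b* at 1547 against 4193 CPM, 2.71-fold lower (2.65 to 2.77). Of 17 cytokine genes 9 were at least 2-fold lower and 2 higher, *Il10* (2.97-fold, 2.39 to 3.72) and *Il18* (2.61-fold, 2.05 to 3.36). Of 17 classical monocyte genes 7 were at least 2-fold higher, *Lyz2* by the selection and the others including *F13a1* at 182 against 54.1 CPM (3.36-fold, 2.95 to 3.83), *Ccr2* (3.35-fold, 3.08 to 3.64) and *Vcan* (2.81-fold, 2.52 to 3.14). Another 4 were lower, *Cd14*, *Clec4e* and *Ifitm6* among them. *Fcgr1*, encoding the high-affinity IgG receptor of monocytes and macrophages, was at 137 against 38.9 CPM, 3.52-fold higher (3.03 to 4.11). All 8 fibroblast genes were at least 2-fold lower in the members, and the neutrophil gate held *Dcn* at 1899 CPM against 249 CPM. The part of fibroblast transcripts in this comparison was not tested.

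Against the 124 dendritic cells, *Lyz2*-bearing members were low in antigen presentation and high in Fc receptor, lectin and antimicrobial genes. Of 5833 genes 437 (7.49%) were at least 2-fold higher and 372 (6.38%) lower, around a median log2 ratio of -0.06. With all members the counts were 531 of 6425 (8.26%) higher and 333 (5.18%) lower. Of 13 genes of MHC class II and costimulation 12 were at least 2-fold lower: *H2-Aa* stood at 1006 against 10318 CPM (10.3-fold lower, 9.99 to 10.5), *Cd74* at 2733 against 23721 CPM, and the class II activator gene *Ciita* at 9.51 against 88.0 CPM. *Ccl22* and *Ccl17*, chemokines of mature dendritic cells, were 57.7-fold (42.6 to 80.0) and 48.8-fold (31.5 to 79.4) lower, and *Fscn1*, an actin-bundling gene of migrating dendritic cells, 47.8-fold lower (35.9 to 64.8).

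Of 18 Fc and C-type lectin receptor genes 14 were at least 2-fold higher than in dendritic cells and 1 lower, with *Fcgr3* at 401 against 68.4 CPM (5.87-fold, 4.90 to 7.09) and *Clec4d* at 324 against 39.8 CPM (8.13-fold, 6.43 to 10.4). Of 12 antimicrobial and oxidase genes 10 were higher and 0 lower, with *Slc11a1* and *Hp* among them and *Lyz2* fixed by the selection, and *Cybb*, the oxidase subunit gene, was 6.20-fold higher (5.07 to 7.68). *Vcan* was at 214 against 14.6 CPM (14.7-fold, 9.99 to 22.6). *Tlr7*, level with macrophages, had 3 UMIs in the dendritic cells and a ratio of 8.49 (2.83 to 41.8). *Tlr7* passed the UMI minimum almost wholly through the *Lyz2*-bearing members, which held 7988358 UMIs of all genes against 1784563 in the dendritic cells. After thinning, the share of these members with *Tlr7* was little above that of T cells, as given above. The part of background transcripts in this ratio was not tested.

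The members also varied among themselves along the gate level. The *Lyz2*-bearing members were ordered by their summed *Ly6c2*, *Chil3* and *Plac8* level, and the tertile with the most (327 cells, median 104.6 per 10000) was set beside the tertile with the least (328 cells, median 16.8). Of 4147 genes, 159 (3.83%) were at least 2-fold higher in the top cells and 122 (2.94%) lower. The top cells were deeper, with a median of 9527 against 6518.5 UMIs, and the part of depth was not tested. In the top tertile *Mgst1*, a glutathione transferase gene, stood at 477 against 66.5 CPM (7.18-fold higher, 6.07 to 8.54), the cofactor gene *Hopx* at 69.8 against 10.4 CPM (6.70-fold, 4.38 to 10.7) and *Prtn3* at 98.9 against 15.6 CPM (6.33-fold, 4.47 to 9.20). *Ifitm6* was 3.87-fold (3.53 to 4.24), *Cd14* 3.61-fold (3.31 to 3.95), *Fn1* 3.25-fold (2.79 to 3.82) and *Hp* 3.16-fold (2.95 to 3.39) higher.

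Several antigen presentation genes were lower in the top cells, though *Ctss* of that list was 1.24-fold higher (1.19 to 1.29). Macrophage genes went both ways. Of 9 measured genes of MHC class II and costimulation 5 were at least 2-fold lower and 0 higher, and of 9 measured macrophage genes 4 were lower and 1 higher, with a median log2 ratio of -0.70. *H2-Aa* was at 288 against 1834 CPM (6.37-fold lower, 5.93 to 6.86) and *Cd74* at 932 against 4741 CPM (5.09-fold lower, 4.88 to 5.30). *Mrc1* was 6.27-fold (4.87 to 8.16), *Ms4a7* 5.28-fold (4.06 to 6.95) and *Maf*, a transcription factor gene of macrophages, 5.16-fold lower (3.98 to 6.75), with *Pf4* as the other lower gene. *Trem2*, a lipid-sensing receptor gene of macrophages, was 2.69-fold higher (2.16 to 3.37), at 124 against 46.1 CPM, and *Cd68* 1.20-fold higher (1.09 to 1.33), while *Apoe* was at 1080 against 1253 CPM. Other monocyte genes did not follow the gate level: *Ccr2* stood at 437 against 402 CPM (1.09-fold), *F13a1* at 182 against 167 CPM and *Csf1r* at 223 against 211 CPM. *Vcan* was slightly lower in the top cells, at 182 against 227 CPM. The chemokine genes crossed: *Cxcl2* was 2.39-fold higher (2.28 to 2.49) in the top tertile, whereas *Ccl2* was 3.06-fold (2.74 to 3.43) and *Ccl7* 3.80-fold lower (3.32 to 4.35). Fibroblast and neutrophil genes also differed between the tertiles. In the top against the bottom tertile *Dcn* stood at 184 against 345 CPM, *S100a8* at 2860 against 1892 CPM and *Ngp* at 5.82 against 16.5 CPM. The part of such transcripts in the tertile values was not tested.

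The same order held over quintiles of the *Lyz2*-bearing members. From the lowest to the highest quintile, *H2-Aa* stood at 1892, 1812, 1049, 502 and 184 CPM, and *Fn1* at 70.0, 110, 135, 212 and 317 CPM. *Mgst1* ran from 55.0 to 578 CPM and *Hp* from 406 to 1471 CPM, each step being higher than the last. *Ccr2* stayed between 403 and 497 CPM. Across 956 *Lyz2*-bearing cells thinned to 1000 UMIs, the gate level had a Spearman rho of -0.32 with the summed MHC class II genes, 0.40 with *Fn1*, *Vcan*, *Hp* and *Ifitm6*, and -0.21 with *Mrc1*, *Ms4a7*, *Maf* and *Adgre1*. The genes of the last 2 sums were chosen from longer lists and do not stand for them. *Trem2* and *Cd68* of the macrophage list were higher in the top tertile, and *Ccr2*, *F13a1* and *Csf1r* were nearly level. The 956 cells share 1 library and the counts are sparse, so the values are descriptions.

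**Figure D5:**
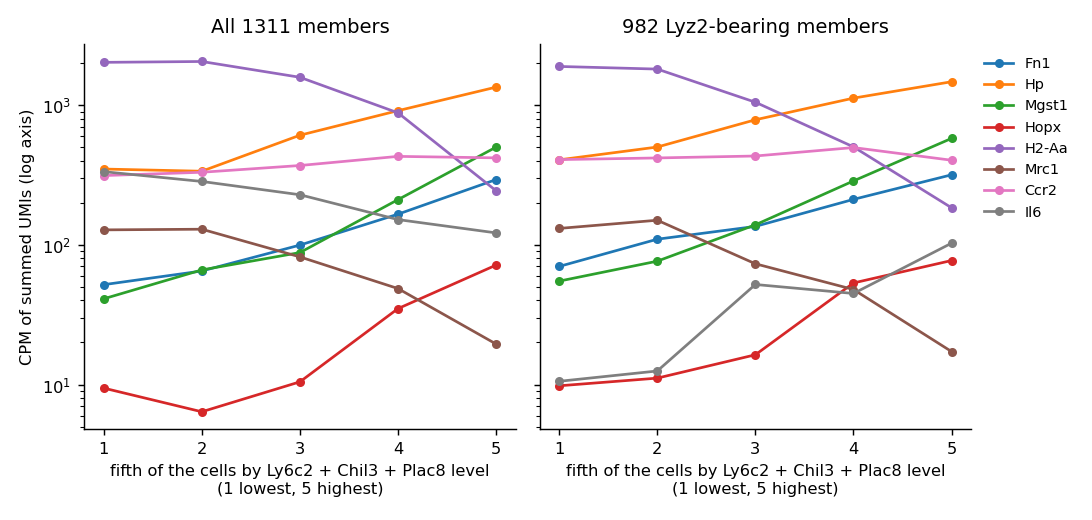
CPM of summed UMIs on a log axis (y) in quintiles of the cells by gate level (x, 1 lowest to 5 highest), for all 1311 members (left) and the 982 *Lyz2*-bearing members (right). On the right, *H2-Aa* falls from 1892 to 184 CPM while *Fn1* climbs from 70.0 to 317 CPM and *Ccr2* stays level, and *Il6* runs in opposite directions in the 2 panels.

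In all 1311 members the same tertile against tertile gave 132 of 4717 genes (2.8%) at least 2-fold higher and 169 (3.58%) lower, and the lower end then held the basophil-gene and cytotoxic transcripts (*Gzma*, *Prss34*, *Nkg7*, *Cpa3*). *Il6* changed direction between the sets: it was 2.79-fold lower (2.49 to 3.13) in the top tertile of all members and 7.56-fold higher (5.00 to 11.9) in the top tertile of *Lyz2*-bearing members, at 82.1 against 10.9 CPM. With only the basophil-gene members left out, so that the remaining members stayed, the log2 ratio of *Il6* was 0.10, and the richest 50 of all members held 70.8% of its UMIs. Of the 157 genes followed in both sets, 15 had an interval on one side of 1 in all members and on the other in the *Lyz2*-bearing ones. Besides *Il6*, 9 of these were lower in the top tertile of all members and higher in that of the *Lyz2*-bearing members: 5 chemokine genes, *Osm* and the early response genes *Junb*, *Jund* and *Ier3*. *Ccl3* was 2.15-fold lower (2.06 to 2.23) and then 1.83-fold higher (1.71 to 1.95), and *Ccl6* 1.90-fold lower (1.84 to 1.96) and then 2.40-fold higher (2.26 to 2.55). *Ccl5* was 3.05-fold lower and then 1.67-fold higher, *Ccl4* 2.24-fold and then 1.34-fold, *Ccl9* 1.35-fold and then 1.86-fold, and *Osm* 2.21-fold and then 1.59-fold. *Vcan*, *Apoe*, *S100a4*, *Cyba* and *Gm9733* turned the other way, by less than 1.5-fold in either set.

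Single genes differed in how unevenly members carried them. Among 956 *Lyz2*-bearing members thinned to 1000 UMIs, the ratio of variance to mean was highest for *S100a8* (15.8), *S100a9* (15.8) and *Cx3cr1* (15.7), followed by the acute phase gene *Saa3* (11.7), *Hspa1a* (11.2), *Fth1* (10.0), *Cd74* (9.54) and *Cxcl2* (9.31), against a median of 1.06 over 1007 genes. The neutrophil genes were unevenly spread: *S100a8* and *S100a9* together reached 200 per 10000 in 75 members, 38 of them *Lyz2*-bearing. Among all members *Ccl6*, *Mcpt8* and *Ccl4* joined the most uneven genes. *Ccr2* was carried more evenly, its richest 50 cells holding 17.3% of its UMIs, against 34.4% for *Fn1*, 70.8% for *Il6* and 89.3% for *Cx3cr1*.

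The same gate in the epidermal library kept 69 of 3277 cells that passed the limits (2.11%, 1.64 to 2.66), with a median of 3762 UMIs. These cells had *Lyz2* at 8587 CPM, *Ccr2* at 178 CPM and *F13a1* at 146 CPM, and *Mcpt8* at 1313 CPM. *Krt14*, a keratin gene of basal keratinocytes, stood at 3851 CPM in them, and the part of keratinocyte transcripts in their values was not tested. By the methods the layers were loaded by different sorts, so the shares of the 2 libraries are not compared.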

How the data were processed

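Epidermal and dermal cells of IMQ-treated mouse skin were profiled by droplet-based single-cell 3′ RNA sequencing, 1 library each. The authors counted UMIs per gene and cell with Cell Ranger (version 3.0.2 in the file headers; the labels name CASAVA and mm10) and deposited the raw counts for every barcode called a cell, unfiltered for genes, mitochondria or doublets. Here the limits were 200 and 5000 genes and 10% mitochondrial UMIs, and doublets were removed only as an alternative. UMIs were summed per group. At least 2-fold refers to CPM ratios with 0.5 UMI added, among genes that reached 100 UMIs in the sum of the groups compared, gate genes excepted. Intervals are exact at 95%. For shares of cells, cells were thinned to 1000 UMIs. T cells had at least 3 *Cd3* UMIs, fibroblasts at least 10 UMIs of *Pdgfra*, *Dcn* and *Lum* and no *Ptprc*, and keratinocytes at least 100 keratin UMIs per 10000 and no *Ptprc*. The dermal comparisons share the members. The members, gene lists and rule for naming genes (marker and list genes, and the 15 largest and smallest ratios per comparison) were chosen with earlier results of these data known, and *Prss34* and the split by *Lyz2* were singled out afterwards. Alternatives changed the limits, the UMI minimum, the scaling and the sets of members. Python 3.11.15, numpy 2.4.6, scipy 1.17.1, pandas 2.3.3 and scanpy 1.11.5 were used, and the comparison was tested on simulated data.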

Additional observations from a re-analysis of the deposited data

How the results depend on the processing

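No paired analysis was possible because there is a single library for each tissue. Of 112 counts and shares computed under an alternative, 83 stayed close to the reported value (a count within 1.5 times, a share within its 95% interval) and 29 moved further. A change of direction was not scored for them. The balance of higher and lower genes did turn in some. Against dendritic cells it went from 531 and 333 to 1675 and 2449 with 1 UMI as the minimum. Between tertiles it went from 132 and 169 in all members to 159 and 122 in *Lyz2*-bearing members. The share of members among dermal cells was 19.8% with a gate of 20 per 10000, 34.2% with a gate of 5 and 26.2% with the C1q limit at 10. It was 20.8% for *Lyz2*-bearing members only and 24.7% without basophil-gene members, both chosen after seeing the data. With 20 UMIs as the minimum and all members, genes at least 2-fold higher and lower were 994 and 853 against macrophages, 713 and 1195 against neutrophils, 979 and 894 against dendritic cells, and 284 and 694 between tertiles. With 1 UMI they were 3139 and 2198, 1559 and 3202, and 1675 and 2449 for the 3 groups. After thinning to 1000 UMIs, when fewer genes reached the minimum, they were 188 and 75 against macrophages, 202 and 61 against dendritic cells, 32 and 36 between tertiles, and 176 lower against neutrophils. Against neutrophils, means over cells gave 1080 higher and centred ratios 136, and an upper against a lower group of equal size, in place of tertiles, gave 76 higher. Of 814 ratios of named genes, 503 stayed within the counting interval of the reported value, 304 moved outside it and 7 changed sign from a ratio of at least 2-fold, all between tertiles. In *Lyz2*-bearing members, where fewer cells were compared, the log2 ratio was 2.89 for *Il6*, 0.87 for *Ccl3*, 0.42 for *Ccl4*, 0.73 for *Ccl5* and 0.67 for *Osm*, and without basophil-gene members it was 0.10 for *Il6* and 0.0693 for *Osm*. Smaller ratios that changed sign, such as those of *Ccl6* and *Ccl9*, are not among the 7. With 1 library per tissue, depth sets only the counting error, and the spread between animals cannot be given.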

Other observations

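Several gene groups of the *Lyz2*-bearing members have not been described above. Of 31 measured transcription factor genes, 5 were at least 2-fold higher than in C1q-high macrophages (5.28% of all genes) and 2 lower. *Cebpb*, a regulator of inflammatory myeloid genes, stood at 1579 against 659 CPM (2.39-fold higher, 2.31 to 2.48), and *Nfe2l2*, encoding the oxidative stress factor NRF2, at 157 against 50.5 CPM (3.11-fold, 2.76 to 3.51). *Spi1*, which encodes PU.1, was at 645 against 525 CPM. *Maf* was 3.46-fold lower (3.15 to 3.82), and *Nr1h3*, a sterol-sensing receptor gene, stood at 6.63 against 21.4 CPM.

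Of 21 hypoxia and glycolysis genes 2 were at least 2-fold higher, against 5.28% of all genes compared, and 0 lower, which is too few to set the list apart. The 2 were the lactate transporter gene *Slc16a3*, at 87.9 against 20.8 CPM (4.23-fold, 3.53 to 5.09), and the glucose transporter gene *Slc2a1*, at 38.7 against 12.1 CPM. *Slc2a1* was lower than in neutrophils, at 92.6 CPM. *Trem1*, an amplifier of myeloid inflammation, was at 84.9 CPM in *Lyz2*-bearing members, 23.8 CPM in macrophages and 483 CPM in neutrophils. *Ptgs2*, encoding cyclooxygenase-2, was at 76.7 CPM in *Lyz2*-bearing members and 26.6 CPM in macrophages.

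Removing the top doublet scores took out 231 dermal barcodes, 41 of them members. Fibroblast genes reached 10 UMIs in 25 members, 18 of them *Lyz2*-bearing, and *Dcn* was at 249 CPM in *Lyz2*-bearing members against 560 CPM in T cells.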
